A study of Mus musculus with 4 samples.

Results

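The genes examined here are named for the proteins of the mitochondrial ribosome (mitoribosome), and all but Mrps36, now counted as a subunit of another complex, encode them. They were taken as every gene listed in both assays whose symbol begins with Mrpl or Mrps followed by a digit, a rule that uses no measured value. It found 78 of the 20714 gene symbols shared by the assays, 49 named for the large subunit (Mrpl) and 29 for the small subunit (Mrps). None of the 78 was listed at 0 in any library, and all 78 passed the filter on low values, a mean of at least 1 FPKM in both assays, as 8327 symbols did in all.

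The study compared protein levels, translation and transcripts in mouse oocytes and preimplantation embryos. The 4 libraries used here come from wild-type blastocysts, with no experimental treatment named beyond hormone injection of the mothers and culture. Of the libraries, 2 are RNA-seq libraries made from polyadenylated RNA with Smart-seq2. The other 2 are Ribo-seq libraries of ribosome-protected fragments (RPF) made with the low-input method Ribo-lite. The mothers were given the hormones PMSG and hCG to induce ovulation. The study states that superovulation and in vitro culture may influence embryo quality. The embryos came from 4-week-old C57BL/6J females mated with PWK/PhJ males (the strain field of the labels reads C57BL/6N x PWK), were taken at the 8-cell stage, grown to blastocysts in KSOM medium and freed of the zona pellucida. Both assays share genotype, treatment and stage, so the one comparison the design offers is RPF against mRNA, that is, how many ribosome footprints a gene has for its amount of mRNA. Levels are in FPKM, fragments per kilobase scaled to the mapped fragments of the library, counted over the whole transcript for mRNA and over the coding part for RPF. The assays were scaled separately, so an FPKM of RPF is not the same amount as an FPKM of mRNA, and the assays are set against each other only relative to the other genes of each library. Whole blastocysts hold several cell types in bulk, and fewer cells of a type cannot be told apart from less RNA per cell. The labels do not say whether libraries numbered 1 and 2 came from separate embryo pools, so the spread between them may be partly technical.

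The mitoribosome is built inside the mitochondrion from ribosomal RNA made there and from proteins that are encoded in the nucleus, translated on cytosolic ribosomes and imported. It makes the few respiratory chain and ATP synthase subunits that mitochondrial DNA still encodes. The small subunit holds the mRNA and the decoding centre, and the large subunit joins the amino acids and passes the growing chain through an exit tunnel towards the inner membrane. Many of its proteins descend from bacterial ribosomal proteins, while others have no bacterial counterpart and are called mitochondria-specific here. The footprints counted here are those of cytosolic ribosomes on the mRNAs of these proteins and say nothing directly about translation inside mitochondria.

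The depth was not given with the FPKM values and was read from the steps in low values. These steps correspond to about 5454600 and 5170954 fragments in the mRNA libraries and 535185 and 485621 footprints in the RPF libraries. With these totals, 63.8% and 62.9% of the low mRNA values and 84.2% and 84.6% of the low RPF values lay within 0.1 of a whole number of fragments, where values without steps would give 20%. The RPF values therefore rest on fewer reads than the mRNA values. Of the blastocyst markers, Krt8 and Krt18 of the trophectoderm lay between 838 and 3584 FPKM in all 4 libraries and Cdx2 between 21.0 and 319 FPKM, and Pou5f1, Nanog and Gata6 were above 9 FPKM throughout, while the inner cell mass gene Sox2 was at 0.889 and 0.682 FPKM of mRNA but 37.1 and 35.4 FPKM of RPF. The oocyte markers Zp3, Gdf9, Nlrp5 and Oosp1 and the blood marker Hba-a1 were below 2 FPKM in every library, and Foxl2, Fshr, Inha, Amh and Ptprc were listed at 0.

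The start codon and its surroundings are shown first for the 5 members with the most and the 5 with the fewest footprints for their mRNA, because the ribosome that leaves a footprint begins there. Each line gives 12 bases before the start codon, the start codon in capitals and 15 bases after it, 5′ to 3′, read from the NCBIM37 (mm9) genome annotation on the gene's own strand.
Mrpl17: tgaggtgagagcATGaggttgtcgctggct
Mrps25: ctgacttccaccATGccgatgaagggtcgc
Mrps33: actggtgaagaaATGtctccgctttcggag
Mrpl19: gagggtgtagacATGgcggcctccatggca
Mrpl15: gcaccgcgggtcATGgctggcacggcgcgc
Mrps21: aaatacgaggccATGgctaaacatctgaag
Mrpl37: aacggagtcggtATGgccttggcgtccggg
Mrpl18: gtcccgtcagccATGgcgcttcggccgcgg
Mrps28: cgcgcaggcgtcATGgcggcgctgtgtagg
Mrpl42: ttgctaaggatcATGgctgcggcagtaaaa

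In all 5 members with the fewest footprints for their mRNA, the base 3 before the start codon was a purine and the base after the start codon was a G, the Kozak pattern. Among the 5 at the other end, Mrpl19 and Mrpl15 had both features, whereas Mrpl17, Mrps25 and Mrps33 had only the purine. These 10 were chosen by their values, so their contrast is a description. Over the 77 members with an annotated window, 52 (67.5%) had both features, against 47.0% of the 7738 tested genes with one, and their median centred log2 RPF-to-mRNA difference was −0.94, against −0.44 for the 21 members with only the purine. Over all tested genes these medians were −0.22 with both features and −0.23 with only the purine. The letters ATGGC, which at the start codon give an alanine as the second codon, stood somewhere in the window in 52 of the 77 members and in 30.4% of the tested genes.

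The mitoribosomal protein genes were well expressed in the blastocyst, and as a group they were more abundant than most tested genes in both assays. Their median level was 67.8 and 87.8 FPKM in mRNA replicates 1 and 2 and 132 and 111 FPKM in RPF replicates 1 and 2, against 7.98 and 8.07 FPKM and 25.3 and 23.8 FPKM over the genes tested. Levels nonetheless differed widely between subunits of the same particle. The range over the members was 7.03 to 422 FPKM in mRNA replicate 1 and 23.3 to 1357 FPKM in RPF replicate 1. On the log2(FPKM + 1) scale, the SD over members was 1.21 and 1.22 for mRNA and 1.11 and 1.25 for RPF, against 2.05 and 2.06, and 2.41 and 2.54, over all genes tested.

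**Figure D1:**
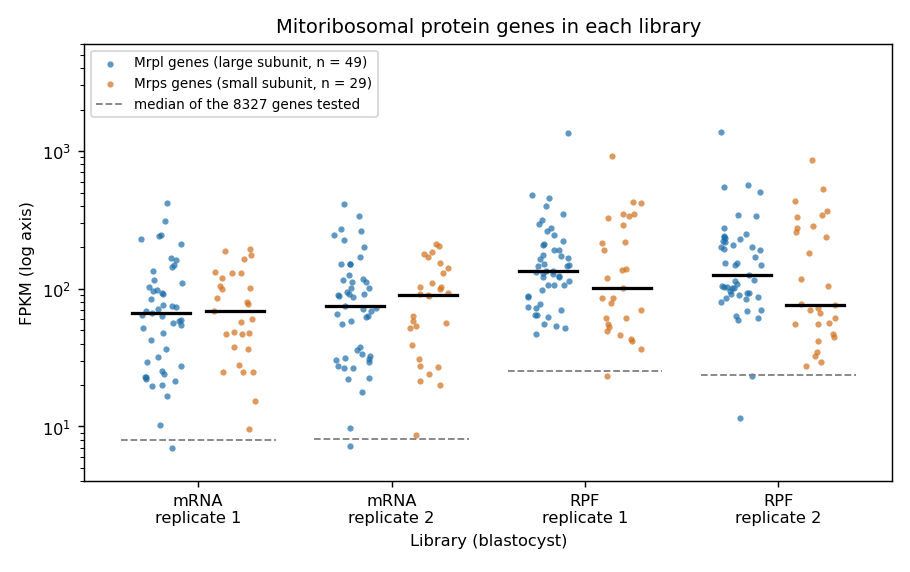
FPKM (log axis) of each member in each of the 4 libraries, with Mrpl genes in blue, Mrps genes in orange, a black bar at the median of each and a dashed line at the median of all genes tested. The black bars of Mrpl and Mrps genes lie close together in the mRNA libraries (66.5 and 69.3 FPKM in replicate 1), and the Mrpl bar is the higher one in both RPF libraries (134 against 101 FPKM in replicate 1).

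At the top of the mRNA levels stood Mrpl42, a mitochondria-specific protein of the large subunit, with 422 and 412 FPKM in the mRNA libraries. It was followed by Mrpl52, also mitochondria-specific, with 311 and 340.4 FPKM, and by Mrpl33, one of the smallest proteins of the large subunit, with 247 and 263 FPKM. Mrpl18, a protein of the central protuberance, had 232 and 269.7 FPKM, and Mrpl23, which lines the rim of the exit tunnel, had 239.9 and 245 FPKM. All 5 belong to the large subunit, and the libraries differed between replicates by far less than these members differed from the lowest ones.

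The lowest mRNA levels were those of Mrpl19 with 7.03 and 7.17 FPKM, Mrps25 with 9.59 and 8.74 FPKM and Mrpl48 with 10.3 and 9.81 FPKM. Mrpl19 is the relative of a bacterial protein at the face between the subunits, and Mrps25 and Mrpl48 are mitochondria-specific. Next came the mitochondria-specific Mrpl50 with 16.7 and 17.7 FPKM and Mrps31 with 15.2 and 19.9 FPKM. Mrpl19, Mrps25 and Mrpl48 were near the middle of all genes tested for mRNA, at percentiles 46.7, 53.4 and 55.5, whereas their RPF levels were at percentiles 73.2, 86.5 and 77.1.

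The RPF levels gave a different order. Mrpl33 was highest with 1357 and 1373 FPKM, followed by the mitochondria-specific small subunit protein Mrps33 with 924 and 863 FPKM and by Mrpl17, which stands at the exit tunnel, with 457 and 548 FPKM. Mrpl52 had 483 and 507 FPKM and Mrps17, the relative of a bacterial protein that binds small subunit rRNA, had 422 and 529 FPKM. Mrpl17 ranked 3 of the 78 in RPF but 64 in mRNA, while Mrpl42 ranked 1 in mRNA and 19 in RPF. The FPKM of short coding parts are raised by the effective-length correction of the authors' tool, by an estimated 3.22 times for Mrpl33, 2.47 for Mrps33 and 1.61 for Mrpl17.

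The lowest RPF levels were those of Mrps27, a pentatricopeptide repeat protein of the small subunit, with 23.3 and 27.6 FPKM, and of the mitochondria-specific Mrpl37, with 47.2 and 11.6 FPKM. Mrps31 had 43.2 and 32.5 FPKM, Mrps9, the relative of a bacterial protein near the tRNA sites of the small subunit, had 36.6 and 55.2 FPKM, and Mrps30 had 49.8 and 42.1 FPKM. Mrpl37 differed between the RPF libraries by 1.94 on the log2 scale, so that its place in the order was set by replicate 2, whereas the RPF libraries lay close together for Mrps27. Of these 5, 4 carry an Mrps symbol.

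**Figure D2:**
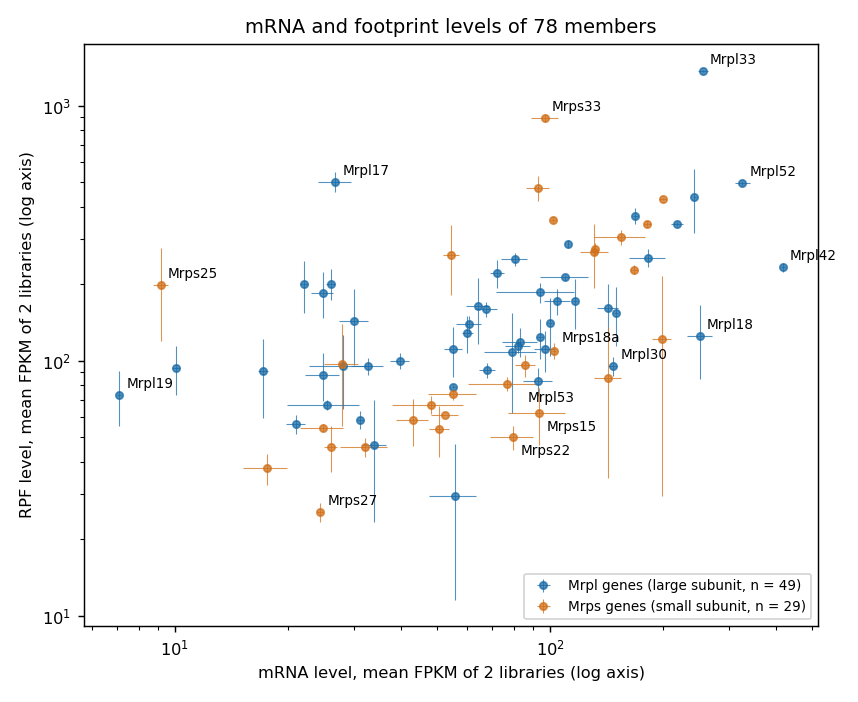
Mean RPF level against mean mRNA level of each member (FPKM, log axes), where bars span the 2 libraries of each assay and Mrpl genes are blue and Mrps genes orange. Mrpl17, Mrps33 and Mrps25 lie above the bulk of the members, and Mrpl42, Mrpl18, Mrps22 and Mrps27 lie below it.

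The medians of the large and small subunits lay closer together in mRNA than in RPF. The median of the 49 Mrpl genes was 66.5 and 75.5 FPKM in the mRNA libraries, that of the 29 Mrps genes 69.3 and 90.3 FPKM, and the difference of the log2 medians, large minus small, was −0.06 and −0.26. In the RPF libraries the medians were 134 and 126 FPKM for Mrpl and 101 and 75.9 FPKM for Mrps genes, a difference of 0.40 and 0.73. The RPF median of the large subunit was thus the higher one in both libraries, while for mRNA the median of the small subunit was the higher one in both. The order held for the medians only, as the upper quartile of RPF was 207 and 222 FPKM for Mrpl and 289 and 277 FPKM for Mrps genes. Over the 71 members with at least 10 implied footprints in each RPF library, a setting chosen after seeing the data, the mRNA difference from the means of the replicates turned from −0.13 to 0.022. The difference in the RPF-to-mRNA measure, 0.57 in replicate 1 and 0.16 in replicate 2 and 0.45 from the means of the replicates, varied by 0.29 (SD of the 2 replicates), and with FPKM rescaled to the plain annotated length it was 0.09. These are medians over genes of the same libraries and carry no test.

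The spread of levels was also unequal, again as a description with no test. RPF levels of Mrps genes had an interquartile range of 2.36 and 2.31 on the log2(FPKM + 1) scale, against 1.23 and 1.27 for Mrpl genes. For mRNA the order was the opposite, with 1.64 and 1.71 for Mrps and 1.88 and 1.82 for Mrpl genes. The Mrps genes were thus the more spread out of the subunits in both RPF libraries and the less spread out in both mRNA libraries. Counted by the place of each protein in the solved structures, where Mrps30 (mL65) and Mrps18a (mL66) sit in the large subunit and Mrps36 is no longer counted as a ribosomal protein, the interquartile range of RPF was 2.23 and 2.28 for 26 small and 1.18 and 1.26 for 51 large subunit members.

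Relatives of bacterial ribosomal proteins had a higher median mRNA level than mitochondria-specific proteins in both libraries. The medians were 89.2 and 100.2 FPKM over 48 relatives and 52.1 and 62.1 FPKM over 29 mitochondria-specific members. For RPF they were 143 and 117 FPKM against 107 and 102 FPKM, so the classes lay closer together in RPF replicate 2. The median centred RPF-to-mRNA difference was −0.66 in the relatives and −0.54 in the mitochondria-specific members, against SDs of 1.07 and 1.28 within the classes.

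Messenger and footprint levels went together only loosely among the members. Across the 78 genes, Spearman's rho between mRNA and RPF was 0.607 in replicate 1 and 0.490 in replicate 2, against 0.795 and 0.769 across all genes tested, whose levels span a wider range. Between replicates, rho was 0.975 for mRNA and 0.805 for RPF. The RPF-to-mRNA difference itself had a rho of 0.826 between replicate 1 and replicate 2, against 0.622 over the genes tested. These correlations are across genes of the same libraries, which are not independent replicates, and describe the order of genes only.

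For the test, log2(FPKM + 1) was centred in each library on the median of the tested genes, and the RPF-to-mRNA difference of every gene was fitted with limma. A gene was called at a Benjamini-Hochberg adjusted p under 0.05 and an absolute difference of at least 1. Of the members, 2 were called with RPF higher and 8 with RPF lower, where 6.65% (554) and 5.31% (442) of the 8327 genes tested were called. As shares of the members these are 2.56% and 10.3%. In each subunit 1 member was called higher and 4 lower, out of 49 Mrpl and 29 Mrps genes. The median difference was −0.60 over the members, −0.54 over Mrpl and −0.99 over Mrps genes, against −0.24 over all genes tested. Without centring these medians of members and of tested genes turned positive (0.90 and 1.26) but kept their order. With no filter on low values, where genes near 0 set the centre, the median was 1.27 over the members. Over all 20714 symbols of that fit the median was 0.36, a wider set than the 8327 genes tested, so its order with the members is not comparable. Of the members, 58 (74.4%) were below 0, against 58.3% of the genes tested. Without centring, 31 members were called higher and 0 lower, beside 4113 higher and 65 lower of all genes, and without the filter 41 higher and 0 lower, beside 5330 and 158. With a pseudocount of 0.1, Mrpl17, Mrpl30, Mrpl42 and Mrps22 kept their calls, and the other 6 of the 10 lost them with adjusted p from 0.0563 (Mrpl18) to 0.0624 (Mrps15). With plain lengths 1 was called higher and 14 lower, and with quantile normalization 3 and 18. The signs given here are thus relative to the centre of each library, which was 1.50 higher for RPF than for mRNA, so that every difference between −1.50 and 0 is positive without centring. Without mRNA replicate 1 and without mRNA replicate 2, the difference of Mrpl17 was 2.54 and 2.81, against 2.68 in the full fit. That of Mrpl42 was −2.32 and −2.37, against −2.34. Their SEs rose from 0.28 to 0.44 and from 0.25 to 0.42. A fit with a lone library of an assay assumes that it varies like the other assay. Without an mRNA library every call was lost, and without an RPF library more genes were called than in the full fit. These fits are therefore no support for a call, and the cause of lost calls was not tested.

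**Figure D3:**
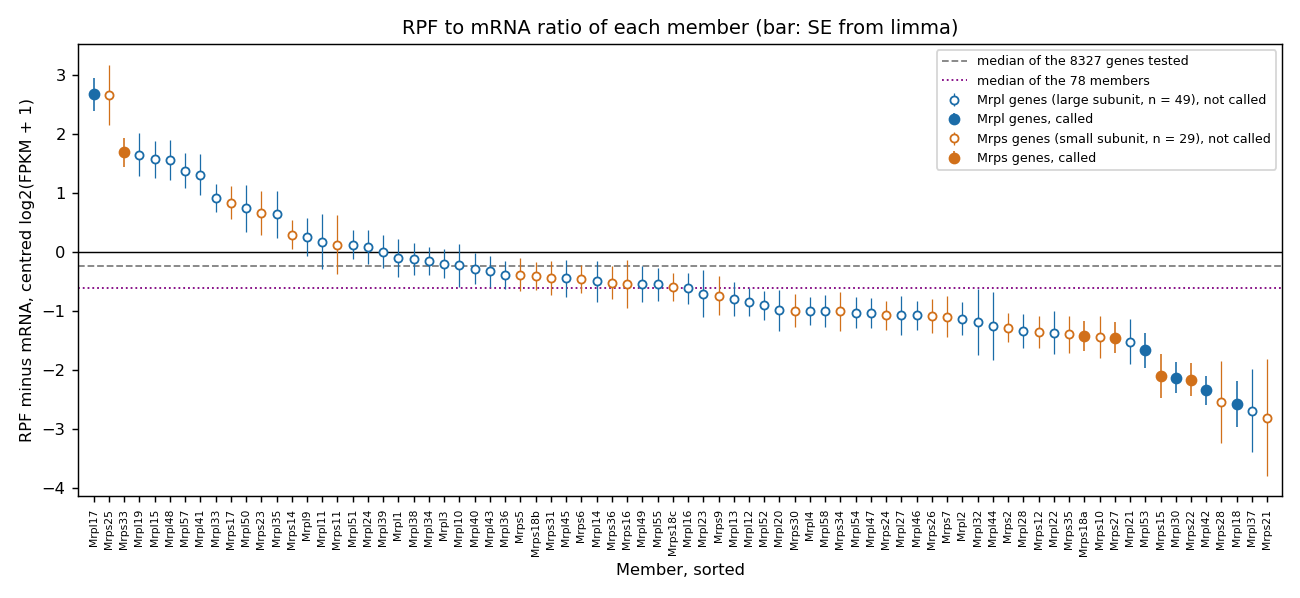
Centred RPF-to-mRNA difference of each member on the log2(FPKM + 1) scale, sorted from high to low, with the SE from limma as bars, filled points for the 10 called members and lines at the median of the members and of the genes tested. Mrpl17 (2.68) and Mrps33 (1.69) are the filled points above 0, and the 8 filled points below 0 run from Mrps18a (−1.41) to Mrpl18 (−2.57), of which Mrps18a and Mrps27 move above 0 without centring or without the filter and Mrpl53 without the filter.

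Mrpl17 had the largest positive difference of all members. Its levels were 24.0 and 29.5 FPKM in the mRNA libraries and 457 and 548 FPKM in the RPF libraries, and its centred difference was 2.68 (SE 0.28, adjusted p = 0.0246). About 80.1 and 87.1 footprints stood behind the RPF values, among the most of any member. Mrpl17 (chr7:112955172-112959613, minus strand, mm9) shares no exon with another annotated gene, and none of its coding windows of 28 bases occurs at a second place in the genome.

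Mrps33 had 105 and 89.0 FPKM of mRNA against 924 and 863 FPKM of RPF, and its centred difference was 1.69 (SE 0.25, adjusted p = 0.0364). Its coding part of 318 bases is short, and with FPKM rescaled to the plain length its difference was 0.82 and the call was lost (adjusted p = 0.101). Of its coding windows found in the genome, 82.3% occur at more than 1 place, up to 4, and reads of such places cannot be told apart. The windows were cut from the spliced coding sequence, so 1 that crosses an exon junction as a rule matches only a copy elsewhere. All 294 windows of Mrps33 were found, so this share is a lower limit, as the shares of other spliced members can be.

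Mrpl42, the member with the most mRNA, had 223 and 242 FPKM of RPF. Its difference was −2.34 (SE 0.25, adjusted p = 0.0246), and it was −0.84 without centring and −0.48 without the filter, where the call was lost because the difference was under 1. Mrpl18 had 232 and 269.7 FPKM of mRNA against 165 and 85.0 FPKM of RPF, with a difference of −2.57 (SE 0.39, adjusted p = 0.0372). Mrpl30, a relative of a bacterial large subunit protein, had 143 and 151 FPKM of mRNA against 87.0 and 103 FPKM of RPF, and its difference was −2.13 (SE 0.26, adjusted p = 0.0293). Mrpl42 lies at chr10:94943440-94964561 (minus strand, mm9), and 53.7% of its coding windows found in the genome occur at more than 1 place, as do 45.2% of those of Mrpl30 and 27.6% of those of Mrpl18. Of the coding bases of Mrpl18, 22.96% are shared with exons of Tcp1 on the opposite strand. These 3 members had negative differences also without centring, on the scale on which the median gene has more RPF than mRNA.

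Mrps22, a mitochondria-specific protein of the small subunit, had 69.3 and 90.3 FPKM of mRNA against 55.4 and 44.6 FPKM of RPF and a difference of −2.16 (SE 0.28, adjusted p = 0.0303). For Mrps15, the relative of a bacterial protein that binds small subunit rRNA early in assembly, the values were 77.4 and 109.9 FPKM in the mRNA libraries and 78.2 and 46.7 FPKM in the RPF libraries, and the centred difference was −2.10 (SE 0.37, adjusted p = 0.0452), with −2.43 without RPF replicate 1 and −1.78 without RPF replicate 2. Mrpl53 had 84.5 and 101 FPKM of mRNA against 72.9 and 93.8 FPKM of RPF and a difference of −1.66 (SE 0.29, adjusted p = 0.0458), which was 0.20 without the filter. All exon bases of Mrpl53 are also exon bases of Ccdc142 on the same strand, and its RPF values rest on about 6.19 and 7.22 footprints, so its value is uncertain on both counts.

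Mrps27 and Mrps18a had the smallest called differences. Mrps27 had 24.9 and 23.9 FPKM of mRNA against 23.3 and 27.6 FPKM of RPF, a difference of −1.45 (SE 0.26, adjusted p = 0.0467) and about 13.0 and 14.0 footprints. Mrps18a had 101 and 104 FPKM of mRNA against 101 and 117 FPKM of RPF and a difference of −1.41 (SE 0.26, adjusted p = 0.0469). In both, uncentred RPF and mRNA values were nearly equal, and their differences were on the other side of 0 without centring (0.053 and 0.088) and without the filter (0.42 and 0.45). Part of the coding bases of Mrps27 (33.5%) overlaps exons of 6430562O15Rik on the opposite strand.

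Several members with large differences did not pass the test. Mrps25 had 9.59 and 8.74 FPKM of mRNA against 119.7 and 277 FPKM of RPF, RPF values that differed between libraries by 1.20 on the log2 scale, and a difference of 2.67 (SE 0.51, adjusted p = 0.0503). Mrpl19 had 7.03 and 7.17 FPKM of mRNA against 55.3 and 91.5 FPKM of RPF with a difference of 1.65 (SE 0.37, adjusted p = 0.0608), and Mrpl15, a relative of a bacterial large subunit protein, 21.6 and 22.6 FPKM of mRNA against 245 and 153 FPKM of RPF with 1.58 (SE 0.31, adjusted p = 0.0521). In all 3 the adjusted p was just past the threshold. Of the exon bases of Mrps25, 58.2% overlap Nr2c2 on the opposite strand, none of them coding.

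At the other end, Mrps21 had 187 and 211 FPKM of mRNA against 214 and 29.5 FPKM of RPF, Mrpl37 47.7 and 63.6 FPKM of mRNA against 47.2 and 11.6 FPKM of RPF, and Mrps28 131 and 155 FPKM of mRNA against 136 and 34.6 FPKM of RPF. Their differences were −2.80 (SE 0.99, adjusted p = 0.131), −2.69 (SE 0.71, adjusted p = 0.0806) and −2.54 (SE 0.70, adjusted p = 0.0865). In each of these 3 members RPF replicate 2 was far below RPF replicate 1. Without RPF replicate 2 the differences were −1.44, −1.76 and −1.61, and without RPF replicate 1 they were −4.17, −3.62 and −3.47, so all were below 0 with either library, and limma called all 3 in both of these fits (adjusted p of 0.0175, 0.0124 and 0.0132 in the former), in which the lone RPF library is assumed to vary like the mRNA libraries. The implied footprints were 10.4 and 1.30 for Mrps21, 27.0 and 6.00 for Mrpl37 and 26.0 and 6.01 for Mrps28. Exact Poisson intervals (95%), which cover counting error only, ran from 4.80 to 18.4 and from 0.0253 to 5.57 for the rounded counts of Mrps21.

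Replicates lay closer together for the members, which are more abundant, than for the median gene tested. The median absolute log2 difference between libraries was 0.18 for mRNA and 0.32 for RPF, against 0.27 and 0.48 over the genes tested. No member differed by more than 1 in mRNA (5.30% of the genes tested did), and 8 of 78 did in RPF (25.1% of the genes tested). The largest mRNA differences were those of Mrpl14 (71.7 and 116 FPKM), Mrps34 (37.8 and 58.7 FPKM), Mrps35 (60.3 and 92.9 FPKM), Mrpl1 (19.9 and 30.9 FPKM) and Mrpl11 (22.7 and 33.4 FPKM), all higher in replicate 2, as were 64 of the 78 members in mRNA. In RPF, 44 of 78 were higher in replicate 2, and after Mrps21, Mrpl37 and Mrps28 the largest differences were those of Mrpl44 (70.2 and 23.2 FPKM) and Mrps11 (139 and 55.3 FPKM).

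**Figure D4:**
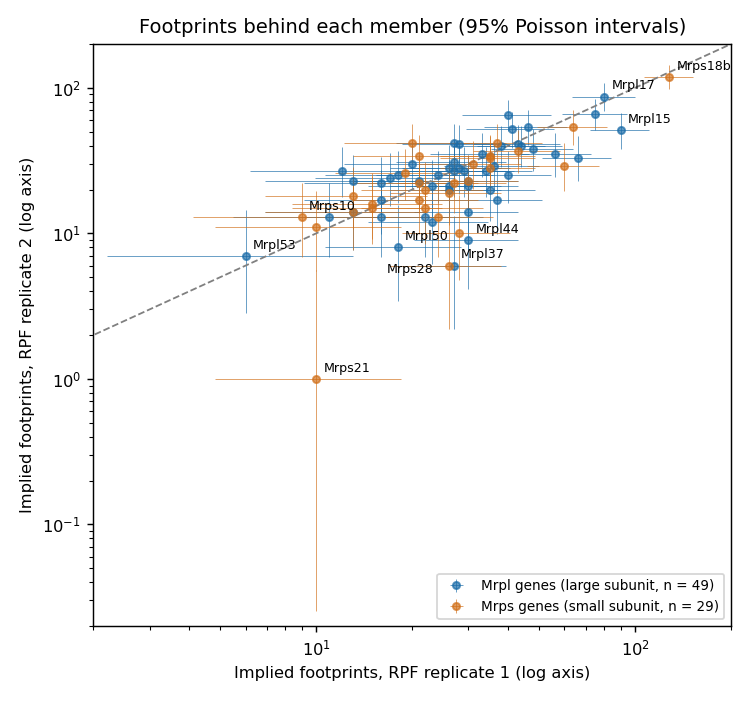
Footprints implied by the RPF values of each member in replicate 1 and replicate 2 (log axes), with exact 95% Poisson intervals of the rounded counts as bars and a dashed line of equality. Most members lie near the line with a median of 27.0 and 24.5 footprints, Mrps18b has the most, and Mrps21, Mrpl37, Mrps28 and Mrpl44 lie below the line.

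By place in the particle, the 3 stalk members Mrpl10, Mrpl11 and Mrpl12 carry the arm that recruits translation factors. Mrpl12, which has also been found bound to the mitochondrial RNA polymerase, had 210.0 and 226 FPKM in the mRNA libraries and 348 and 338 FPKM in the RPF libraries, Mrpl10 59.6 and 68.6 FPKM of mRNA against 210.3 and 116 FPKM of RPF and Mrpl11 22.7 and 33.4 FPKM of mRNA against 64.7 and 126 FPKM of RPF. Mrpl12 was thus the most abundant of the stalk in both assays, and limma called 0 of the stalk members, of which 1 had an unadjusted p under 0.05 (differences of −0.85, −0.22 and 0.18, the first and the second of them above 0 without centring).

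Around the exit tunnel, 8 members had RPF-to-mRNA differences from −1.36 to 2.68, and of these Mrpl17 alone was called. Mrpl23 had 239.9 and 245 FPKM of mRNA against 315 and 565 FPKM of RPF (−0.70), Mrpl22 134 and 152 FPKM of mRNA against 123.2 and 199.9 FPKM of RPF (−1.36) and Mrpl24 69.1 and 75.5 FPKM of mRNA against 192 and 249 FPKM of RPF (0.08). Mrpl45, through which the mitoribosome is held at the inner membrane, had 58.2 and 62.1 FPKM of mRNA against 107 and 149 FPKM of RPF (−0.44). Mrpl47 had 75.9 and 88.7 FPKM of mRNA against 121 and 108 FPKM of RPF (−1.03), Mrpl39 29.5 and 35.9 FPKM of mRNA against 87.9 and 102 FPKM of RPF (0.01) and Mrpl44, which carries a ribonuclease-like fold, 36.5 and 31.5 FPKM of mRNA against 70.2 and 23.2 FPKM of RPF (−1.25). Mrpl17 and Mrpl23 were thus at the lower and upper end of this group in mRNA replicate 1, with 24.0 and 239.9 FPKM, while their RPF levels all lay between 315 and 565 FPKM.

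The central protuberance, the crest of the large subunit that contacts the small one, gave 6 members, of which Mrpl18 was called lower. Mrpl27, whose bacterial relative reaches towards the peptidyl transferase centre, had 98.6 and 101 FPKM of mRNA against 175 and 104 FPKM of RPF (−1.07), Mrpl38 19.7 and 22.2 FPKM of mRNA against 51.7 and 61.4 FPKM of RPF (−0.12) and Mrpl40 63.0 and 72.1 FPKM of mRNA against 148 and 170.3 FPKM of RPF (−0.28). Mrpl46 had 64.7 and 71.1 FPKM of mRNA against 98.0 and 85.8 FPKM of RPF (−1.07) and Mrpl48 10.3 and 9.81 FPKM of mRNA against 73.5 and 114 FPKM of RPF (1.57). Mrpl48 and Mrpl18 stood at opposite ends of this group, with the least mRNA and a high share of RPF in the former and the most mRNA and a low share in the latter. Of the exon bases of Mrpl48, 43.5% are also exon bases of D630004N19Rik on the same strand, none of them coding. Of its coding windows found in the genome, 56.8% occur at more than 1 place, so its levels are uncertain on both counts.

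In the small subunit, Mrps12 of the decoding centre had 80.5 and 91.3 FPKM of mRNA against 86.2 and 106 FPKM of RPF and a difference of −1.35 (SE 0.27, adjusted p = 0.0543), short of the threshold, and above 0 (0.15) without centring. The 3 paralogs of the bacterial S18 family, which occupy different places in the particle, differed in level. Mrps18b had 195 and 204 FPKM of mRNA against 425 and 435 FPKM of RPF and Mrps18c 177 and 185 FPKM of mRNA against 352 and 334 FPKM of RPF, each above Mrps18a in all 4 libraries, and their differences of −0.40 and −0.59 did not pass the test. Of the coding windows found in the genome, 51.0% for Mrps18b, 30.9% for Mrps18c and 0% for Mrps18a occur at more than 1 place. Exons of Gm16279 on the opposite strand share 45.5% of the coding bases of Mrps18b. Among the members, 39 have windows at more than 1 place, and in 11, including Mrpl23 and Mrps21, these are the majority. Mrps30, named for the small subunit but placed in the large one, had 36.7 and 27.6 FPKM of mRNA against 49.8 and 42.1 FPKM of RPF (−0.99). Mrps36, now known as the Kgd4 subunit of the α-ketoglutarate dehydrogenase complex, had 131 and 179 FPKM of mRNA against 325 and 284 FPKM of RPF (−0.52), and 99.3% of its coding windows found in the genome occur at several places, up to 7.

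The coding parts of the members were 195 to 1326 bases long (median 576 for Mrpl and 588 for Mrps genes), shorter than the median of 1272 over the genes tested. Members with longer coding parts had lower RPF levels (Spearman's rho −0.702, against −0.449 across all genes tested) and lower mRNA levels (−0.549 against −0.440). The effective-length correction, which raises the RPF of members by an estimated 1.18 to 3.22 times, is part of these values. The centred RPF-to-mRNA difference had little relation to coding length (−0.165) but was higher with a greater length of the transcript outside the coding part (0.456, and 0.360 with FPKM rescaled to the plain length, against 0.209 and 0.206 over all genes tested). The 16 members with more than 1500 noncoding bases had a median difference of 0.47, and 10 of them lay above 0. The other 62 members had a median of −0.87, and 10 of them lay above 0. The medians over the genes tested were 0.12 for 2835 long and −0.38 for 5377 short ones. Between these classes the median mRNA level of the members was 28.3 against 88.4 FPKM, while the median RPF level was 131 against 109 FPKM. Smart-seq2 reads and FPKM of mRNA are taken over the whole transcript including its noncoding part, and RPF FPKM only over the coding part. The part of annotation and read distribution in this relation was not tested.

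**Figure D5:**
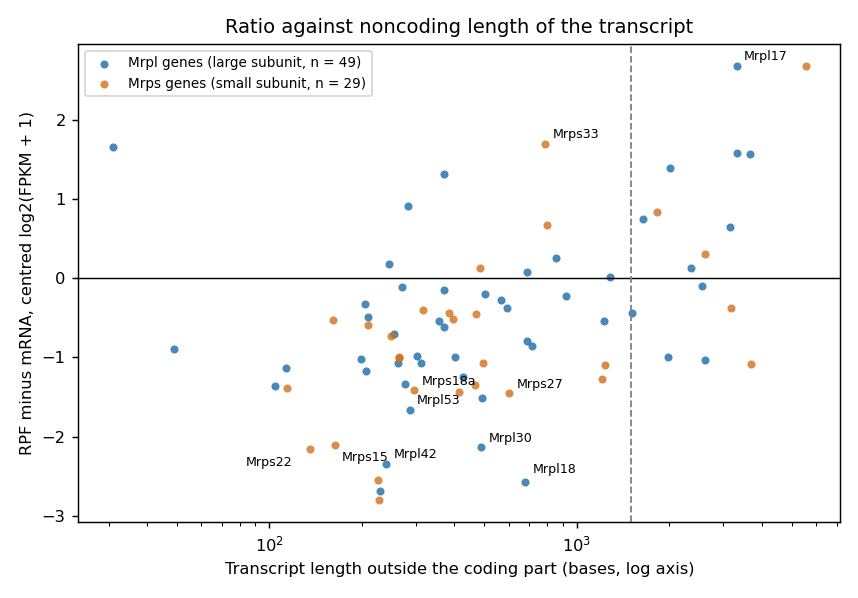
Centred RPF-to-mRNA difference (log2(FPKM + 1) scale) of each member against the length of its transcript outside the coding part (bases, log axis), with called members named and a dashed line at 1500 bases. To the right of the line 10 of 16 members lie above 0, with Mrpl17 at the top, and to the left 10 of 62 do.

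Some promoters of the members, but not all, held known words for factors that act on nuclear genes of mitochondrial proteins. Promoter sequence, 250 bases before to 50 after the gene start, was available from RefSeq (GRCm38.p6) for 69 of the 78 members. The NRF1 word GCGCATGCG, on either strand, was present in 7 of 69 (10.1%, 6 in Mrpl and 1 in Mrps genes), against 5.05% of 6731 tested genes and 1.95% of all 27025 promoters. The ETS family (GABPA) word CCGGAAG was in 26 members (37.7%), against 24.4% of tested genes and 9.93% of all, and the YY1 word AAGATGGCG, which holds the letters of a start codon, in 8 members (11.6%), against 4.59% and 1.64%. The last 3 letters of the ETS word are the first 3 of the YY1 word, so 1 stretch can hold both. A word in a window is a description of its letters and not of bound protein.

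Promoters are printed for 3 called members that hold these words, chosen after their values were seen: Mrpl17 with the NRF1 and ETS words and RPF above mRNA, Mrpl42 with the YY1 word, and Mrps18a with the ETS and YY1 words, with RPF below the median gene's share in both. Words are in capitals, and sequences run 5′ to 3′ on the gene's strand, at chr7:105811038-105811337 (minus), chr10:95501900-95502199 (minus) and chr17:46110754-46111053 (plus) of GRCm38.p6.
Mrpl17: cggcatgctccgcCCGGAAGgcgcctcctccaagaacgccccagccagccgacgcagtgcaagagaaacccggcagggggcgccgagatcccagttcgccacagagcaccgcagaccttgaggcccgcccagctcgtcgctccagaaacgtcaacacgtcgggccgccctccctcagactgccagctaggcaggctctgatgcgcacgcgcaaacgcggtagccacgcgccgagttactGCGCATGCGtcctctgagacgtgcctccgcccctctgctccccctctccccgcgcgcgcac
Mrpl42: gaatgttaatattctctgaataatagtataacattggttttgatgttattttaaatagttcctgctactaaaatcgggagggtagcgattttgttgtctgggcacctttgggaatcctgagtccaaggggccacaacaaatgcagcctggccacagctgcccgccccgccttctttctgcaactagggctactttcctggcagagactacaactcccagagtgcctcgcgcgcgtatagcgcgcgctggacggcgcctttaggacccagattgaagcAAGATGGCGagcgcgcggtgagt
Mrps18a: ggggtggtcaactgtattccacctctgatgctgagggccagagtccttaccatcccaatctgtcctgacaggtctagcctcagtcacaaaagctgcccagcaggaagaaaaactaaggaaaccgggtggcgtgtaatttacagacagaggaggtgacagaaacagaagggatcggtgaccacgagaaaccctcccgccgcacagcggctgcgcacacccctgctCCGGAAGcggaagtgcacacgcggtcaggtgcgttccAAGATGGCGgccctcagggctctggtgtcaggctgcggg

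In the Mrpl42 and Mrps18a promoters the YY1 word lies after the gene start, among the transcribed bases. Over all members with a start codon window, the YY1 word stood in that window in 7 of 77 (9.09%), against 3.28% of the tested genes. Whether it covered the start codon itself was not counted. Mrps33, the other member called higher, holds an ETS word in its promoter, as do Mrpl18, Mrps22, Mrpl53, Mrps27 and Mrps18a among those called lower. Mrpl30, Mrpl42 and Mrps15, also called lower, do not. The share was 37.7% over the 69 members with a promoter and 24.4% over tested genes, and a link of the word with the calls was not tested.

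Some proteins of the mitoribosome do not carry an Mrpl or Mrps symbol. The 5 tested (Aurkaip1, Chchd1, Dap3, Gadd45gip1 and Ptcd3) had differences from −1.31 to 1.23 with a median of 0.11, and limma called 0 of them, with 2 at an unadjusted p under 0.05. Dap3, a GTP-binding protein of the small subunit, had 18.3 and 20.1 FPKM of mRNA against 146 and 95.3 FPKM of RPF. Chchd1 had the most mRNA of the 5, 263 and 259 FPKM of mRNA against 304 and 563 FPKM of RPF.

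Of 10 mitochondrial translation factors tested, 1 was called higher and 1 lower (10% each, against 6.65% and 5.31% of all genes tested). Mtif3, the mitochondrial initiation factor that keeps the subunits apart, had 3.73 and 5.24 FPKM of mRNA against 47.7 and 42.7 FPKM of RPF and a difference of 1.58 (SE 0.27, adjusted p = 0.0442). Gfm2, which splits ribosomes after termination, had 9.005 and 8.56 FPKM of mRNA against 10.9 and 8.69 FPKM of RPF and a difference of −1.37 (SE 0.25, adjusted p = 0.047). Of 25 assembly and rRNA modification factors tested, 4 were called lower (16%) and 0 higher (10 and 1 at an unadjusted limma p under 0.05). The 4 were Mterf3 (−2.73, 11.5 and 18.6 FPKM of mRNA against 5.41 and 5.97 FPKM of RPF), Tfb1m, which methylates the small subunit rRNA (−2.70, 33.1 and 34.6 FPKM of mRNA against 20.2 and 9.87 FPKM of RPF), Fastkd2 (−2.14, 8.56 and 9.94 FPKM of mRNA against 7.01 and 4.41 FPKM of RPF) and Malsu1, which binds the immature large subunit (−2.02, 50.2 and 62.4 FPKM of mRNA against 50.3 and 29.8 FPKM of RPF).

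Among 13 genes of mitochondrial transcription and mRNA stability, Tfam, which packages mitochondrial DNA and starts its transcription, was called higher with 4.90 and 6.38 FPKM of mRNA against 106 and 105 FPKM of RPF and a difference of 2.51 (SE 0.26, adjusted p = 0.0243) (3 genes were lower at an unadjusted p under 0.05, and limma called 0 of them). Of 4 genes for inserting the products into the inner membrane, Cox18 was called lower with 44.3 and 42.0 FPKM of mRNA against 16.5 and 10.4 FPKM of RPF and a difference of −3.15 (SE 0.30, adjusted p = 0.0231). Cytosolic ribosomal proteins had a median difference of −0.76 over 79 genes, of which 10 (12.7%) were called higher and 23 (29.1%) lower. Nuclear subunits of the respiratory chain and ATP synthase had −0.72 over 74 genes, of which 3 (4.05%) were called higher and 11 (14.9%) lower. The median was −0.60 for the mitoribosomal members and −0.24 for all genes tested, all relative to the centring. Of the members 2.56% were called higher and 10.3% lower, and of all genes tested 6.65% and 5.31%. The mRNA levels of the cytosolic ribosomal and respiratory chain genes were far higher, with medians of 1252 and 1347 FPKM and of 428 and 445 FPKM against 67.8 and 87.8 FPKM.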

How the data were processed

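RNA-seq and Ribo-seq libraries of mouse blastocysts, 2 of each, were analysed. Per the labels and the study's methods, mRNA reads were trimmed with Trim Galore 0.4.2 and footprints with cutadapt 1.14, rRNA footprints were removed with Bowtie2 2.2.2, and reads were aligned with STAR 2.5.3a to the mm9 transcriptome with up to 20 places a read, and turned by the authors into the deposited FPKM with Cufflinks 2.2.1, over transcripts for mRNA and coding parts for RPF. A symbol listed more than once was given its highest value.

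From these FPKM, log2(FPKM + 1) of 8327 genes was centred on each library's median and fitted with limma 3.58.1 (R 4.3.3), with assay as the only term and Benjamini-Hochberg adjustment over all of them. The scripts were tested on simulated data. Members, lists and settings were chosen with earlier results of these data known. Named are the 5 extremes of each measure and of replicate spread, called members, paralogs, 3 structural regions and called genes of the smaller lists. Depth (5454600 and 5170954 mRNA fragments, 535185 and 485621 footprints) and length effects assume the default fragment length (mean 200, SD 80). Lengths and windows came from GENCODE on NCBIM37 (mm9), whose gene models may differ from the authors', matched by symbol (2 members by an older one).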

Additional observations from a re-analysis of the deposited data

How the results depend on the processing

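With 2 libraries per assay and a median of 27.0 and 24.5 footprints per member, calls depended on the settings. All genes called higher and lower were 554 and 442 (members 2 and 8). With a pseudocount of 0.1 they were 308 and 154 (members 1 and 3), with a mean of at least 5 FPKM 620 and 751 (members 8 and 25), with a prior variance trend 861 and 716 (members 8 and 25), with quantile normalization 618 and 574 (members 3 and 18), with plain length 450 and 473 (members 1 and 14 of 76 with a length under their own symbol), without centring 4113 and 65 (members 31 and 0), and without the filter, where genes at or near 0 set the centre, 5330 and 158 (members 41 and 0). The replicate block gave 0 and 0 (members 0 and 0), with 2594 genes and 37 members at an unadjusted limma p under 0.05. The labels give no shared source for a replicate number. The replicate differences of the assays had a correlation over genes of 0.00994, which cannot tell whether libraries of the same number came from one embryo pool. Leaving out 1 library, where the lone library of an assay is assumed to vary like the other, gave 0 to 1268 genes higher and 0 to 1987 lower, and 0 to 10 members higher and 0 to 28 lower.

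Of 26 members followed singly, 10 changed sign without centring: Mrpl12 (0.65), Mrpl23 (0.80), Mrpl52 (0.60), Mrps12 (0.15), Mrps18a (0.088), Mrps18b (1.10), Mrps18c (0.92), Mrps27 (0.053), Mrps30 (0.51) and Mrps36 (0.98). Without the filter the same 10 and Mrpl53 did: Mrpl12 (1.02), Mrpl23 (1.16), Mrpl52 (0.97), Mrpl53 (0.20), Mrps12 (0.52), Mrps18a (0.45), Mrps18b (1.47), Mrps18c (1.28), Mrps27 (0.42), Mrps30 (0.88) and Mrps36 (1.35). With plain length Mrps17 moved to −0.018. The 10 called members had adjusted p from 0.00109 to 0.881 over all alternatives, and the cause of lost calls was not tested.

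The large-minus-small difference of log2 medians was −0.13 for mRNA, 0.74 for RPF and 0.45 for RPF minus mRNA. It was 0.094 for RPF minus mRNA with plain length, 0.022 for mRNA and 0.17 for RPF minus mRNA over the 71 members with at least 10 footprints in each library, and −0.44 for mRNA and 0.90 for RPF minus mRNA over the 28 members with no shared exon and no second genome place, the last pair of settings being chosen after seeing the data. Leaving out 1 library gave −0.26 to −0.06, 0.40 to 0.73 and 0.17 to 0.45. The other settings moved these medians by less than 1 SD of the 2 replicates. The median absolute log2 difference between replicates of the members was 0.186 for mRNA and 0.320 for RPF with a pseudocount of 0.1, against 0.185 and 0.317.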
